A study of Mus musculus with 34 samples.

Results

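The epidermal growth factor (EGF) family and its ErbB receptors were followed in mouse colon tumour organoids as 9 genes chosen by name from the 54354 genes of the deposited table. The 6 ligands were Areg, Ereg, Btc, Hbegf, Tgfa and Epgn, and the 3 receptors were Egfr, Erbb2 and Erbb3. Poly(A) RNA had been sequenced from 34 libraries of epithelial organoids with the genotype AKP, which the labels do not spell out. All 5 groups carried this genotype. They were the Degs1-KO line clone2 (n = 9), the Degs1-KO line clone1 (n = 9), the Scrambled control line of the CRISPR experiment (n = 3), organoids labelled shYAP (n = 3) and organoids labelled shControl (n = 10). Both knockout lines had been made with a CRISPR ribonucleoprotein, and each is a single clone, so a difference between a clone and Scrambled cannot be told apart from a difference between lines. The labels do not say whether the libraries of a group came from separate cultures, and the p-values therefore measure the spread between libraries, which may be technical.

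As background, EGF family ligands are made as membrane-bound precursors that are cut loose by metalloproteases, and they bind ErbB receptors on the same or neighbouring cells. Ligand binding pairs the receptors and switches on their kinases, which feed the RAS to ERK cascade and the PI3K to AKT pathway. In the intestine the pathway drives the proliferation of crypt cells, and colon organoids are usually grown with EGF in the medium. Amphiregulin (Areg) and epiregulin (Ereg) are ligands known from intestinal regeneration after injury.

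Total counts ran from 883253 in clone1 replicate 2 and 1747533 in shControl replicate 3 to 6597099, and every other library held at least 2470845 counts. The targeted gene Degs1, a ceramide-synthesis desaturase, averaged 1.71 ± 0.893 CPM (counts scaled to library size) in clone2 and 2.41 ± 1.32 CPM in clone1, against 7.74 ± 2.62 CPM in Scrambled (SD, n = 9, 9 and 3). Its log2 fold change against Scrambled was -2.15 ± 0.43 (SE; edgeR adjusted p = 1.56e-04) in clone2 and -1.57 ± 0.43 (adjusted p = 0.0117) in clone1. Yap1, the target of the hairpin, averaged 19.1 ± 1.13 CPM in the libraries labelled shYAP and 16.6 ± 4.14 CPM in shControl (SD, n = 3 and 10). Its log2 difference was 0.20, with a 95% interval from -0.27 to 0.66 (edgeR adjusted p = 0.619). Its RNA was thus not shown to be lower, and these libraries are named by their label only. All 8 epithelial markers had counts in every group. Their summed level was 1938 to 2643 CPM in clone2, 2725 to 3522 in clone1, 2362 to 2668 in Scrambled, 1753 to 1986 in shYAP and 1882 to 2428 in shControl. Summed fibroblast markers did not pass 1.18 CPM in any library. Summed leukocyte markers ran from 17.5 to 31.5 CPM in clone2, 22.8 to 29.0 in clone1, 32.2 to 38.2 in Scrambled, 11.6 to 15.7 in shYAP and 15.3 to 40.9 in shControl, carried by Cd68, while the T cell marker Cd3e was at 0 throughout. Of the 3 endothelial markers, Pecam1 reached 3.12 CPM, and Cdh5 and Kdr were at 0 throughout. The part of these differences in marker level in the results that follow was not tested. Fewer cells of a type and less RNA per cell cannot be told apart in bulk libraries.

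The promoters of Areg and Btc are shown because these ligand genes lie near each other and most results below turn on them. Each runs from 250 bases before to 50 bases after the RefSeq start of the gene, 5′ to 3′ on its own strand, in build GRCm38.p6. Areg is at chr5:91139349-91139648 on the plus strand, and Btc at chr5:91402945-91403244 on the minus strand. Capitals mark the motifs TGACGTCA, the cAMP response element, and TATAAA, a core promoter element.
Areg: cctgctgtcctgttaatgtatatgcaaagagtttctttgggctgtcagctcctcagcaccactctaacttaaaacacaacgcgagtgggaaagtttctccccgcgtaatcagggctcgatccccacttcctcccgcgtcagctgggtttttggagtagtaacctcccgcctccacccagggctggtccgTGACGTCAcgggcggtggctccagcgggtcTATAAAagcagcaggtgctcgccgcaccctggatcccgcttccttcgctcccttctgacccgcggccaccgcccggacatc
Btc: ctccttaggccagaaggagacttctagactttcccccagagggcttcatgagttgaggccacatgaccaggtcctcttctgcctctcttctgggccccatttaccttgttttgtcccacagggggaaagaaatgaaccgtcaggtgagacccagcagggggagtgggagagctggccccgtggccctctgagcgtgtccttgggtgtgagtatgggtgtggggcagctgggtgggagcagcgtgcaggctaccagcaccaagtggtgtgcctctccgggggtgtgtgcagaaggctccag
In the Areg promoter the TGACGTCA match lay at bases -61 to -54 and the TATAAA match at -31 to -26, counted from the start site. Of 32851 mouse promoters of this length, 1.79% held TGACGTCA and 13.6% held TATAAA, on either strand. The search also covered TGANTCA, the AP-1 motif, which 7.81% of promoters held, and GGAATG, the TEAD motif, which 14.7% held. None of these 4 motifs was in the Btc window. Promoters were at hand for 6 members (Areg, Btc, Epgn, Tgfa, Egfr and Erbb2). TGANTCA was in 0 of the 6, GGAATG was in the Erbb2 window at -88 to -83, and TATAAA was also in the Epgn window at -86 to -81. A match is a description of the letters and not a site.

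Compared per kilobase of exon, Areg and Btc were the leading ligands in 4 of the 5 groups, Btc and Hbegf in clone2, and Erbb3 was the leading receptor in all 5. Areg averaged 4.37 ± 2.04 CPM per kb in clone2, 18.4 ± 7.33 in clone1, 18.3 ± 3.95 in Scrambled, 68.9 ± 4.26 in shYAP and 26.0 ± 12.7 in shControl (SD; n = 9, 9, 3, 3 and 10, as in all lists of the 5 groups below). Btc, betacellulin, averaged 7.63 ± 1.89, 12.97 ± 1.94, 9.9997 ± 0.282, 15.7 ± 1.52 and 10.3 ± 1.49 CPM per kb in the same groups. Its mean was above that of Areg in clone2 and below it in the other 4 groups. Hbegf, heparin-binding EGF-like growth factor, stood between 5.45 ± 0.401 in shYAP and 6.51 ± 1.67 CPM per kb in Scrambled. Tgfa, transforming growth factor alpha, ranged between 2.09 ± 0.133 in Scrambled and 2.68 ± 0.700 CPM per kb in shControl. Ereg was the scarcest ligand with counts, at a mean between 0.139 ± 0.108 in clone2 and 2.12 ± 0.649 CPM per kb in shYAP. Epgn, epigen, had 0 counts in all 34 libraries. At this depth, 3 counts in a whole group would be 0.232 CPM in shYAP and 0.0663 CPM in shControl, the groups with the highest and the lowest limit (counting error only).

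**Figure D1:**
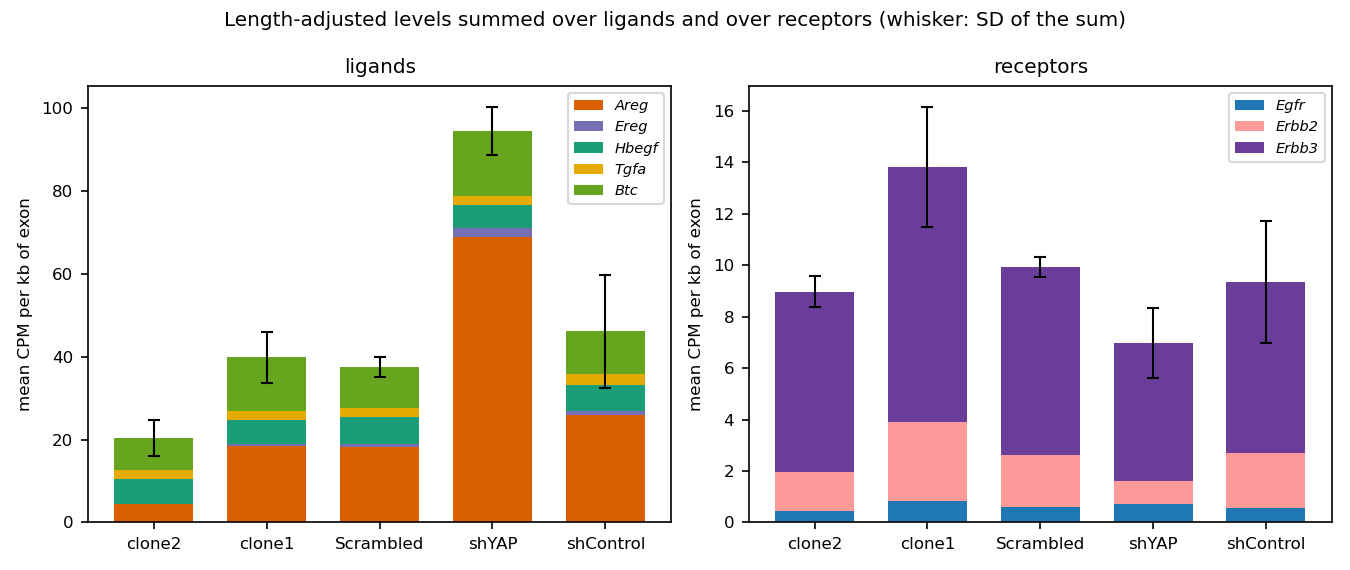
Summed levels of the ligands and of the receptors in CPM per kb of exon (y axis, from 0) by group, stacked by gene. Areg makes up 20.9% of the ligand sum in clone2, 44.9% in clone1, 48.4% in Scrambled, 73.0% in shYAP and 53.3% in shControl, while Erbb3 leads the receptor sum in every group. Percentages are means over the shares in single libraries and can differ from shares of the stacked bars.

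The ligands together came to 20.36 ± 4.30 CPM per kb in clone2, 39.9 ± 6.13 in clone1, 37.5 ± 2.31 in Scrambled, 94.4 ± 5.86 in shYAP and 46.1 ± 13.6 in shControl. The receptors together came to 8.98 ± 0.589, 13.8 ± 2.33, 9.94 ± 0.372, 6.96 ± 1.36 and 9.34 ± 2.38 CPM per kb. The libraries labelled shYAP thus had the highest ligand sum and the lowest receptor mean, and clone2 the lowest ligand sum. Erbb3, which binds neuregulins and signals through partners because its own kinase is weak, held 78.2% of the receptor sum in clone2, 72.1% in clone1, 73.8% in Scrambled, 76.2% in shYAP and 70.4% in shControl. Erbb2, the partner receptor that has no known ligand of its own, held 16.7%, 21.8%, 20.2%, 13.5% and 23.6%. Egfr, the receptor shared by all 6 ligands, held 5.10%, 6.14%, 6.06%, 10.3% and 6.01%. These percentages are means over the shares in single libraries. Shares of a sum move together by construction and were not tested.

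Library by library, Areg separated 2 groups from the rest. It had 2.30, 4.86 and 10.5 CPM as the lowest, median and highest value in clone2, 11.4, 21.04 and 37.2 in clone1, and 20.36, 18.6 and 27.6 in the 3 Scrambled libraries. It had 89.2, 83.2 and 78.9 CPM in the 3 shYAP libraries, against 10.8, 34.9 and 52.4 as the lowest, median and highest value in shControl. All 9 clone2 libraries were below every clone1 and every Scrambled library, and all 3 shYAP libraries were above all 10 of shControl. Ereg rested on few reads, with 0 to 5 counts in a clone2 library, 0 to 10 in clone1, 8 to 26 in Scrambled, 30 to 49 in shYAP and 2 to 32 in shControl. In CPM, Ereg had 0, 0.576 and 1.41 in clone2, 0, 1.05 and 6.64 in clone1, and 1.85, 4.02 and 2.24 in the 3 Scrambled libraries. It had 11.7, 7.82 and 6.63 CPM in the shYAP libraries, against 0.373, 3.63 and 6.48 in shControl. All 9 clone2 libraries were below the 3 Scrambled libraries. So were 7 of the 9 clone1 libraries, though clone1 as a group overlapped Scrambled. The shYAP libraries were just above the highest of shControl. The share of all genes that separate groups in this way is not given, here or below. Such separation is therefore a description only.

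Btc had 22.9, 38.2 and 41.6 CPM in clone2, 48.6, 59.5 and 72.7 in clone1, and 43.7, 45.9 and 45.9 in the 3 Scrambled libraries. It had 70.5, 78.2 and 64.5 CPM in shYAP, against 34.8, 46.3 and 55.7 in shControl. The clones lay on either side of Scrambled without overlap, and shYAP was above shControl without overlap. Hbegf had 18.1, 29.2 and 37.9 CPM in clone2, 23.3, 25.7 and 34.5 in clone1, and 32.4, 39.0 and 23.0 in Scrambled. It had 28.3, 24.4 and 26.3 CPM in shYAP, against 16.6, 30.7 and 41.5 in shControl. Tgfa had 8.21, 15.1 and 20.3 CPM in clone2, 7.61, 15.7 and 18.8 in clone1, and 14.1, 14.1 and 12.6 in Scrambled. It had 13.7, 16.8 and 12.6 CPM in shYAP, against 11.1, 17.9 and 24.9 in shControl. For Hbegf and Tgfa all groups overlapped.

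**Figure D2:**
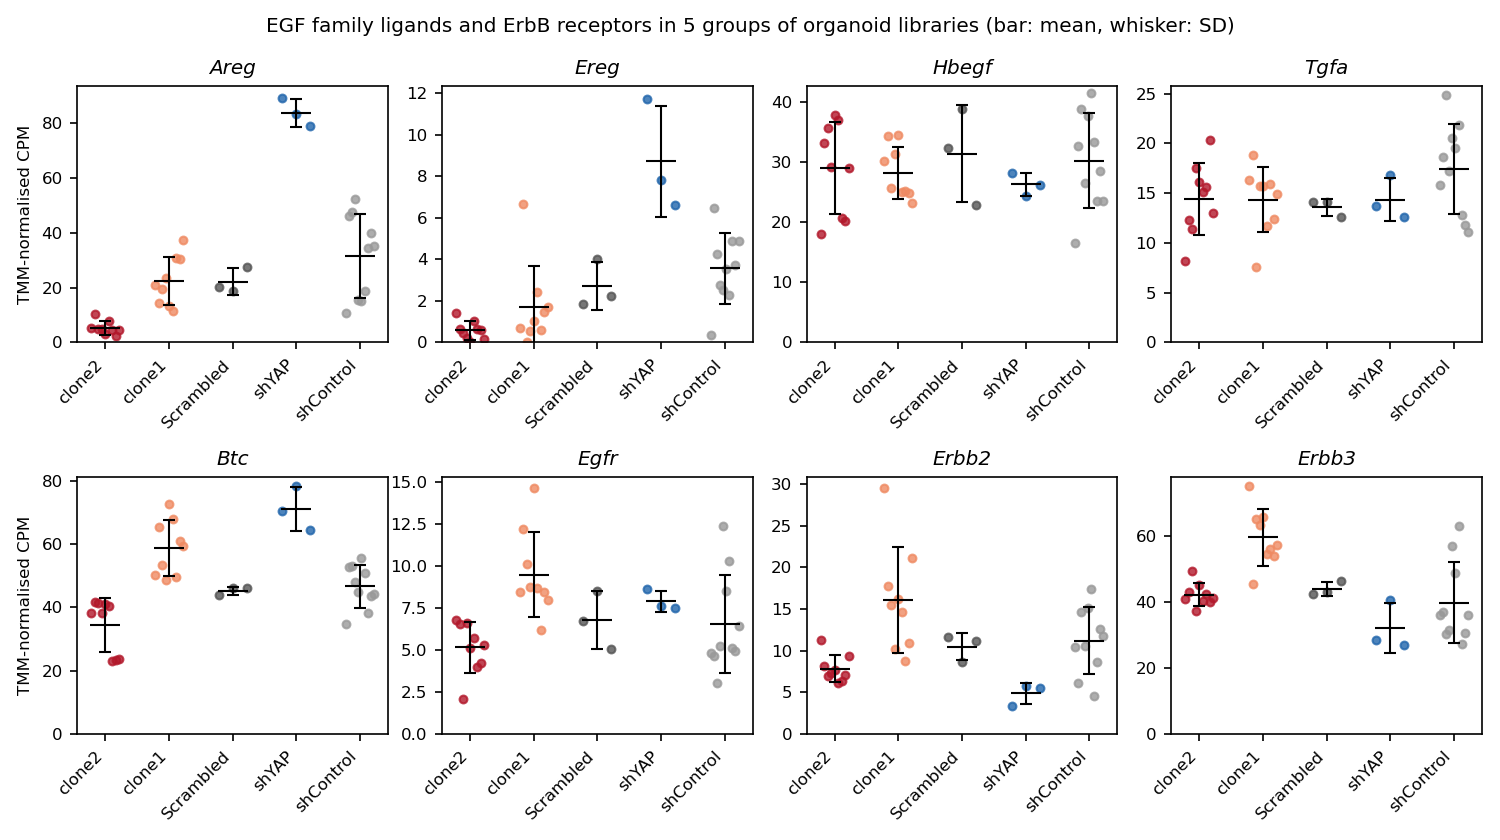
Level of each of the 8 members with counts in TMM-normalised CPM (y axis, from 0) in every library, by group. Points are libraries and the bar and whiskers give mean and SD, with whiskers ending at 0; by their means Areg and Btc are lowest in clone2 and highest in shYAP, while Hbegf and Tgfa overlap in all groups.

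Among the receptors, Erbb3 had 37.4, 41.3 and 49.6 CPM in clone2, 45.4, 57.4 and 75.3 in clone1, and 42.6, 43.2 and 46.5 in the 3 Scrambled libraries. It had 28.5, 40.8 and 27.0 CPM in shYAP, against 27.3, 36.2 and 63.2 in shControl. Of the clone1 libraries, 8 of 9 were above all of Scrambled, while clone2 overlapped Scrambled. Erbb2 had 6.14, 7.36 and 11.3 CPM in clone2, 8.75, 15.4 and 29.5 in clone1, and 11.6, 8.66 and 11.2 in Scrambled. It had 3.36, 5.69 and 5.52 CPM in shYAP, against 4.52, 11.1 and 17.4 in shControl, where 1 of the 10 libraries lay within the range of shYAP. Egfr had 2.08, 5.27 and 6.79 CPM in clone2, 6.16, 8.69 and 14.6 in clone1, and 6.71, 8.51 and 5.08 in Scrambled. It had 8.63, 7.58 and 7.51 CPM in shYAP, against 3.04, 5.19 and 12.4 in shControl. Egfr overlapped between each group and its control.

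In clone2 against Scrambled, Areg and Ereg were lower and no member was higher. Areg fell to 0.236 times the Scrambled level, a log2 fold change of -2.08 ± 0.31 (SE; edgeR adjusted p = 8.63e-06), and it was lower in 9 of 9 clone2 libraries. Ereg had a log2 fold change of -2.29 ± 0.69 (edgeR adjusted p = 0.00865). These 2 of the 8 members tested passed the threshold of an adjusted p of 0.05, both lower, against a background of 33.1% of all 11514 genes called in either direction and 16.6% called lower, so their number is near the background. The median log2 change of the 8 members was -0.42, against -0.03 over all genes, and the median size was 0.42, against 0.43. Btc had a log2 change of -0.41 with a 95% interval from -0.76 to -0.07, and its adjusted p of 0.0564 (edgeR) missed the threshold. The other 5 did not pass: Erbb3 at -0.08 (interval -0.34 to 0.18), Hbegf at -0.14 (-0.53 to 0.25), Tgfa at 0.07 (-0.39 to 0.53), Egfr at -0.42 (-1.003 to 0.16) and Erbb2 at -0.43 (-0.97 to 0.10). The Ereg call was lost without Scrambled replicate 2 (edgeR adjusted p = 0.109). Hbegf lies on chromosome 18, whose 291 tested genes had a median log2 change of 0.47 in the same comparison, against -0.03 over all genes. Areg, Ereg and Btc lie on chromosome 5, whose 770 tested genes had a median of -0.14, with 18.4% called lower and 11.2% higher. The part of these shifts in the changes of the members was not tested.

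In clone1 against the same Scrambled libraries, Erbb3 was the one member past the threshold. Its log2 fold change was 0.45 ± 0.13 (SE; edgeR adjusted p = 0.0184), a level 1.37 times that of Scrambled. This is 1 of 8 members, against a background of 12.7% of genes called in either direction and 5.96% called higher, and 3 members had an unadjusted p under 0.05. The median log2 change of the 8 was 0.21, against 0.03 over all genes. Areg had a log2 change of 0.05 with a 95% interval from -0.59 to 0.69, and Ereg one of -1.04 with an interval from -2.41 to 0.32. Btc was above every Scrambled library in 9 of 9 clone1 libraries, with a log2 change of 0.37 ± 0.17 (edgeR adjusted p = 0.169). Erbb2 had 0.62 ± 0.27 (adjusted p = 0.134) and Egfr 0.45 ± 0.29 (adjusted p = 0.351). The Erbb3 call was lost without Scrambled replicate 1 (edgeR adjusted p = 0.105) or replicate 2 (0.0920), and with clone1 replicates 7 to 9 alone (0.0665). It was also lost with runs of neighbouring library numbers as a random block (limma adjusted p = 0.133). These runs were set after the values had been seen, and the Scrambled libraries form a single run. That fit therefore cannot decide whether the call holds.

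More members passed between the clones, which have 9 libraries each, than between either clone and the 3 Scrambled libraries. Against Scrambled, the estimates of Btc, Egfr and Erbb2 were negative in clone2 and positive in clone1. Whether the number of libraries or these opposite estimates lay behind the number of calls was not tested. Set against clone1, clone2 was lower in Areg and Btc among the ligands and in all 3 receptors. Areg had a log2 fold change of -2.14 ± 0.25 (SE; edgeR adjusted p = 6.18e-08) and Btc one of -0.78 ± 0.12 (1.89e-06), and for both genes 9 of 9 clone2 libraries were below all of clone1. Erbb2 had -1.06 ± 0.19 (adjusted p = 2.06e-05), Egfr -0.87 ± 0.21 (7.01e-04) and Erbb3 -0.53 ± 0.09 (9.60e-06). The number of clone2 libraries below all of clone1 was 7, 6 and 8 of 9 for these receptors. How many of all genes separate the clones in this way is not given here. With 5 of 8 called, all lower, the members stood against a background of 49.1% of all genes called in either direction and 25.5% called lower. Their median log2 change was -0.83, against -0.05 over all genes, and their median size 0.83, against 0.43. Ereg had -1.25 ± 0.60 (adjusted p = 0.0811). Hbegf and Tgfa had 0.04 (interval -0.25 to 0.32) and 0.02 (-0.31 to 0.35). The 770 tested genes of chromosome 5, with Areg, Ereg and Btc, had a median of -0.21, with 33% lower and 14.8% higher. Chromosome 18, with Hbegf, had a median of 0.36. The part of these shifts was not tested.

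**Figure D3:**
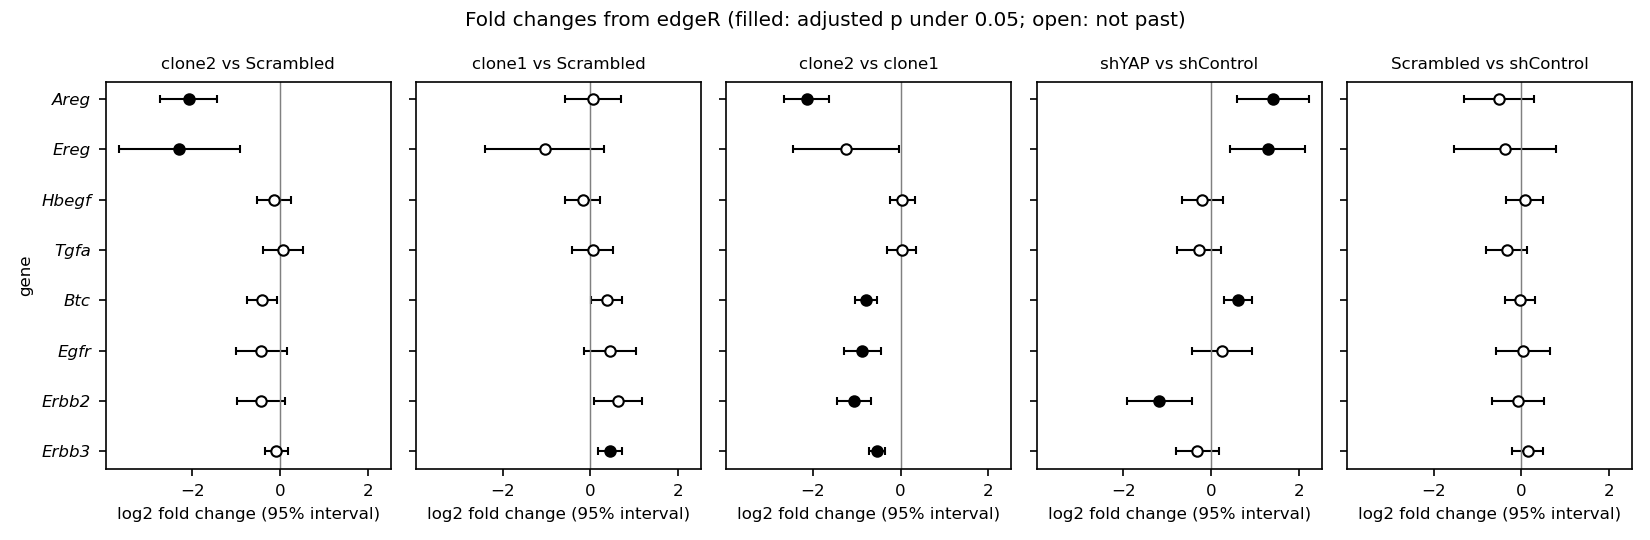
Log2 fold change of each tested member in each comparison, named group over the group it is set against, with bars for the 95% interval and filled points for an adjusted p under 0.05. Areg and Ereg are lower in clone2 and higher in shYAP, and all 3 receptors are lower in clone2 than in clone1.

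In the libraries labelled shYAP, Areg, Ereg and Btc were higher than in shControl and Erbb2 was lower. Areg had a log2 fold change of 1.41 ± 0.38 (SE; edgeR adjusted p = 0.0303), 2.65 times the shControl level. Ereg had 1.29 ± 0.42 (adjusted p = 0.0471), Btc 0.61 ± 0.15 (0.0128) and Erbb2 -1.18 ± 0.36 (0.0353). With these, 4 of 8 members were called, 3 of them higher, against a background of 11.4% of all 11094 genes (5.47% higher and 5.9% lower). Their median log2 change was 0.03, against -0.05 over all genes, and the median size was 0.46, against 0.35. Hbegf, Tgfa, Egfr and Erbb3 did not pass, with log2 changes of -0.20, -0.27, 0.25 and -0.32. The calls of Areg, Ereg and Erbb2 were lost on leaving out any 1 shYAP library (edgeR adjusted p from 0.0979 to 0.262), and that of Btc without replicate 1 (0.0566) or 2 (0.109). All 4 calls were also lost when runs of neighbouring library numbers were kept together as a random block (limma adjusted p = 0.188, 0.246, 0.127 and 0.459 for Areg, Ereg, Btc and Erbb2). These runs were set after the values had been seen, and the shYAP libraries form a single run. This fit therefore cannot decide whether the calls hold.

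Between the controls of both experiments, none of the 8 members tested passed: 0 were called, 0 had an unadjusted p under 0.05 in edgeR, and DESeq2 called 0. The background was 2.95% of all 11960 genes, 1.76% higher and 1.19% lower. The widest log2 differences of Scrambled against shControl were -0.51 in Areg (95% interval -1.31 to 0.29) and -0.37 in Ereg (-1.53 to 0.79). The intervals leave room for differences of that size. The groups come from separate experiments, and the group and the experiment cannot be told apart.

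Within groups, levels moved between runs of libraries with neighbouring library numbers. These runs were defined after the values had been seen and are not known to be batches. In shControl, Areg averaged 39.2 CPM in replicates 1 to 4, 16.3 in replicates 5 to 7 and 36.6 in replicates 8 to 10. Erbb3 (33.8, 56.4 and 31.4 CPM) and Egfr (4.44, 10.4 and 5.50 CPM) were highest in replicates 5 to 7, where the mean of Areg was lowest. The lowest single library in Areg was replicate 1, at 10.8 CPM. It had 36.1 CPM of Erbb3 and 4.84 CPM of Egfr, below the means of replicates 5 to 7. In clone1, Areg averaged 17.1 CPM in replicates 1 to 6 and 32.8 in replicates 7 to 9. In clone2, Btc averaged 39.9 CPM in replicates 1 to 2, 40.2 in replicates 3 to 6 and 23.2 in replicates 7 to 9.

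**Figure D4:**
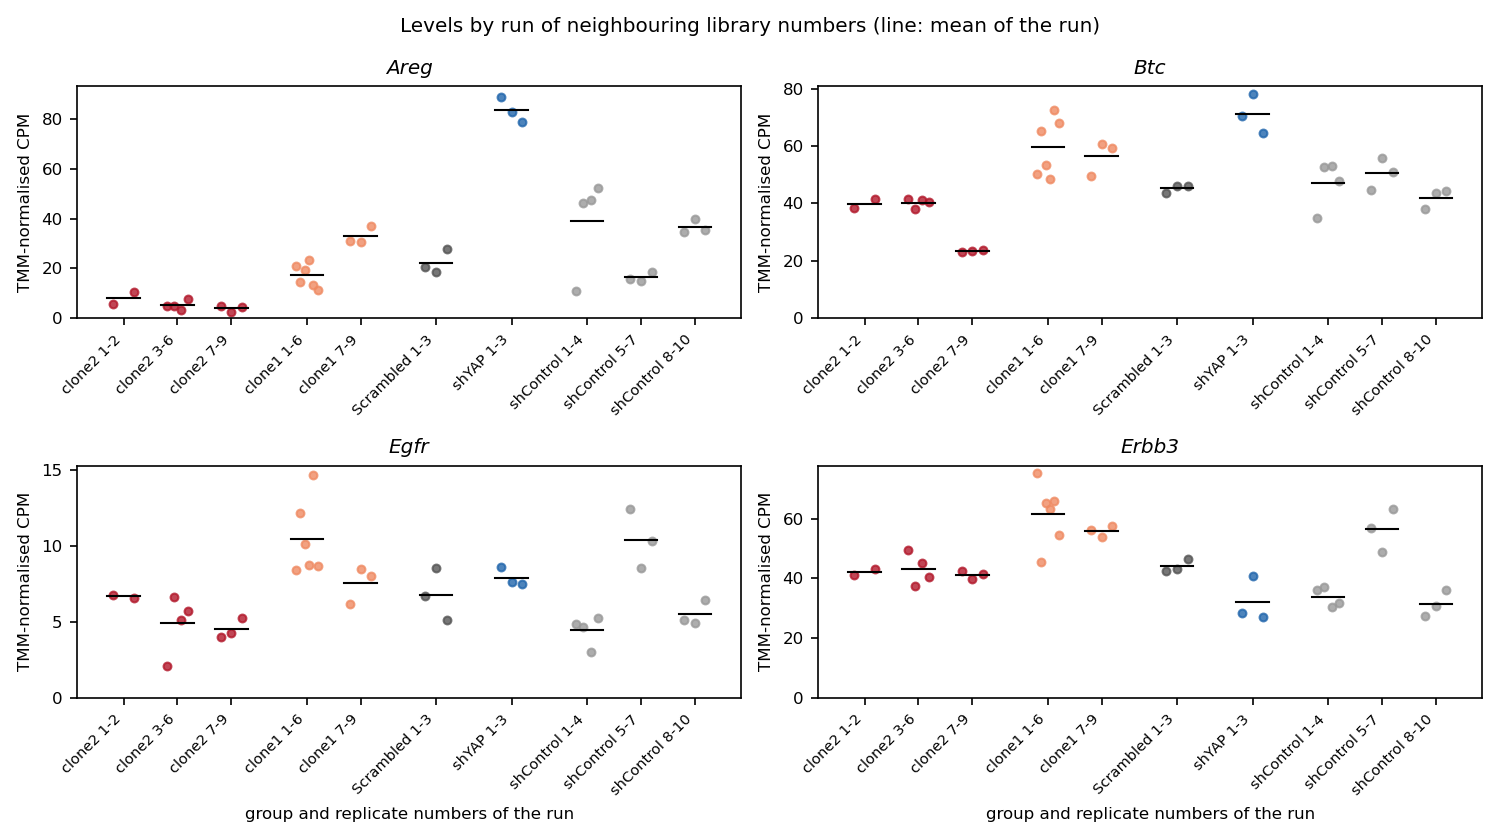
Levels of Areg, Btc, Egfr and Erbb3 in TMM-normalised CPM (y axis, from 0) by group and run of neighbouring library numbers (x axis). Points are libraries and lines are means of a run; Btc in clone2 averages 23.2 CPM in replicates 7 to 9 and 39.9 and 40.2 CPM in the other runs, and the mean of Areg in shControl is lowest in replicates 5 to 7.

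With these runs taken apart, clone2 was lower than Scrambled in Areg both with replicates 1 to 6 alone (log2 -1.87; edgeR adjusted p = 1.06e-06) and with replicates 7 to 9 alone (-2.53; 2.47e-10). Btc in clone2 against Scrambled was -0.17 (edgeR adjusted p = 0.364) with replicates 1 to 6 and -0.95 (9.94e-07) with replicates 7 to 9. Areg in clone1 against Scrambled was -0.33 (edgeR adjusted p = 0.421) with replicates 1 to 6 and 0.56 (0.0471) with replicates 7 to 9. The sign of its estimate thus differed, but the difference between the runs was not tested. As the runs were set after the values had been seen, p-values of single runs describe those subsets only. Between clone2 and clone1, Areg was -1.53 (edgeR adjusted p = 4.00e-06) in replicates 1 to 6 and -3.09 (8.94e-13) in replicates 7 to 9. Egfr lost its call there in replicates 7 to 9 alone (-0.72; adjusted p = 0.0749).

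In the mm10 annotation (GENCODE), 4 of the 6 ligand genes lie side by side on chromosome 5 within 375531 bases. Epgn is at chr5:91027464-91035215, Ereg at chr5:91074622-91093646 and Areg at chr5:91139599-91148432, all on the plus strand, and Btc is at chr5:91357261-91402994 on the minus strand. These neighbours ran from no counts (Epgn) to the ligands with the highest levels per kb in 4 of the 5 groups (Areg and Btc). The 3 with counts had log2 changes of -2.29 (Ereg), -2.08 (Areg) and -0.41 (Btc) in clone2 against Scrambled, and -1.04, 0.05 and 0.37 in clone1 against the same Scrambled libraries. In shYAP against shControl they had 1.29, 1.41 and 0.61. The interval also holds Gm19619, with 41 counts over all libraries, and the antisense gene Gm19610, which overlaps Ereg by 152 bases and had 13 counts. Reads in that overlap could belong to either gene, since the strand setting of the counting is not given in the sources used here. Tgfa is at chr6:86195223-86275719 (+), Hbegf at chr18:36504927-36515805 (-), Egfr at chr11:16752203-16918158 (+), Erbb2 at chr11:98412470-98437716 (+) and Erbb3 at chr10:128567523-128589652 (-).

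The genes whose log2 levels ran closest to Areg over the 34 libraries were Car13, a carbonic anhydrase (root mean square difference 0.72), and the chaperones Hspd1 (0.74) and Hsph1 (0.75), where the SD of Areg itself was 1.34. Car13 averaged 2.33 ± 1.25 CPM in clone2, 11.9 ± 2.15 in clone1, 18.9 ± 4.12 in Scrambled, 38.3 ± 4.60 in shYAP and 12.9 ± 4.36 in shControl. Closest to Ereg (SD 1.29) were the small nuclear RNA 7SK (0.79), and Creld2 (0.83) and Hspa5 (0.85), both proteins of the endoplasmic reticulum. Hspa5 averaged 291 ± 27.7 CPM in clone2, 415 ± 77.1 in clone1, 662 ± 35.3 in Scrambled, 1140 ± 71.8 in shYAP and 599 ± 206 in shControl. Closest to Btc (SD 0.43) were Ifrd1 (0.25), Gm39459 (0.27) and Anxa7 (0.27), and closest to Erbb2 (SD 0.64) were Rcor1 (0.39), Galnt7 (0.44) and Dock5 (0.44). Areg and Ereg differed from each other by 0.96. Likeness was searched for over 6889 genes (6890 for Ereg), the libraries share groups and depth, and the values are descriptions.

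Other genes of the pathway were counted in lists that had been chosen with earlier results of these data known. Their counts are to be read against the shares of all genes called, which were 33.1% in clone2 against Scrambled, 12.7% in clone1 against Scrambled, 49.1% in clone2 against clone1 and 11.4% in shYAP against shControl. The remaining family members, Egf, Nrg1, Nrg2, Nrg3, Nrg4 and Erbb4, had too few counts to be tested. Egf itself had 35 counts in all, in 12 libraries, and Nrg1, Nrg3 and Erbb4 had 0. Of the genes for ligand shedding and transport, 0 of the 6 tested passed in clone2 or in clone1 against Scrambled, and 1 of 7, the sheddase Adam10 (log2 -0.60 ± 0.17; edgeR adjusted p = 0.0253), was lower in shYAP against shControl, near the background of 11.4%. The list's median log2 change was 0.26 in clone2, 0.32 in clone1 and -0.27 in shYAP, against -0.03, 0.03 and -0.05 over all genes. Between clone2 and clone1, Adam9 (0.37) was higher and Adam10 (-0.33) lower, with a list median of -0.26, against -0.05 over all genes.

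Among 10 genes that restrain or degrade the receptors, Lrig1, a membrane protein that targets ErbB receptors for breakdown, was lower in each of the 3 comparisons with a control. It averaged 7.04 ± 0.859 CPM in clone2, 8.46 ± 3.59 in clone1, 20.9 ± 3.90 in Scrambled, 3.55 ± 2.49 in shYAP and 12.1 ± 4.61 in shControl. The log2 change was -1.59 ± 0.24 in clone2 (edgeR adjusted p = 2.00e-06) and -1.25 ± 0.24 in clone1 (3.35e-04), which share the Scrambled libraries, and -1.76 ± 0.44 in shYAP (0.0135). In clone2 against Scrambled, Errfi1 (0.51), an inhibitor of the Egfr kinase, and Rnf41 (0.71), a ubiquitin ligase for Erbb3, were higher, so that 2 of 10 were higher and 1 lower, against 16.5% and 16.6% of all genes. The list's median log2 change was 0.20, against -0.03 over all genes. In clone1 the ubiquitin ligase Cblb was higher (1.62 ± 0.40; edgeR adjusted p = 0.00521), and the list's median was 0.09, against 0.03 over all genes. In shYAP, Lrig1 was the 1 of 9 tested that passed, with a median of 0.03, against -0.05. Between clone2 and clone1, 8 of the 10 passed, of which 3 were higher and 5 lower, against 23.6% higher and 25.5% lower among all genes. The median there was -0.41, against -0.05.

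Downstream, the RAS to MAP kinase and the PI3K to AKT genes were read in the same way. Of 17 adaptor, RAS and MAP kinase genes, Araf, a RAF kinase, was the 1 higher in clone2 against Scrambled (0.54), and none was lower. Among all genes, 16.5% were higher and 16.6% lower there. In shYAP, Hras (1.03) was higher and Sos1 (-1.17), the exchange factor that loads RAS, was lower. Of 9 tested PI3K and AKT genes, Pik3r3, a regulatory subunit, was higher in clone2 (1.13), and Pik3ca, a catalytic subunit, in clone1 (0.66), both against Scrambled. Between clone2 and clone1, 4 of the 17 and 4 of the 9 were lower and none higher, against 25.5% lower and 23.6% higher among all genes. The median log2 change of the 17 was 0.01 in clone2, 0.25 in clone1, -0.27 in shYAP and -0.23 between the clones. That of the 9 was 0.01, 0.34, 0.15 and -0.17, against -0.03, 0.03, -0.05 and -0.05 over all genes.

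Among genes that respond to ERK or feed back on it, calls fell in both directions, as they did among all genes. Fosl1, an AP-1 subunit induced by ERK, averaged 3.95 ± 2.22 CPM in clone2, 4.17 ± 1.89 in clone1, 11.02 ± 3.996 in Scrambled, 18.6 ± 1.85 in shYAP and 5.83 ± 3.77 in shControl. Its log2 change was -1.48 ± 0.37 in clone2 (edgeR adjusted p = 0.00189) and -1.37 ± 0.38 in clone1 (0.0119) against the same Scrambled libraries, and 1.64 ± 0.40 in shYAP against shControl (0.0133). Dusp5, an ERK phosphatase, was higher in clone2 (0.98) and in clone1 (1.33) against Scrambled, and Dusp6, another ERK phosphatase, was higher in clone2 than in clone1 (0.77). In shYAP, Dusp4 (-1.53) and the ERK-responsive factor Etv5 (-1.50) were lower. In all, 2 of the 18 tested were higher and 4 lower in clone2, a share close to the 33.1% of all genes called there, 2 higher and 1 lower in clone1, and 2 of 17 higher and 2 lower in shYAP. The list's median log2 change was 0.08, -0.12 and -0.32 in these comparisons, against -0.03, 0.03 and -0.05 over all genes. Between clone2 and clone1, 1 was higher and 3 were lower, against 23.6% higher and 25.5% lower among all genes. The median there was -0.26, against -0.05. In Scrambled against shControl, Egr1, an immediate early factor, was lower (-1.75), the 1 gene of these 5 lists past the threshold.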

How the data were processed

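The authors had deposited estimated counts per gene (expected counts that need not be whole) for 34 libraries, which had been prepared with a directional poly(A) kit, per the labels' protocols, and quantified with Salmon 1.3.0 on build mm10, per the submitters' processing notes. Values were whole numbers as deposited. The 1243 entries without a gene name, at most 0.0475% of a library's counts, were kept under their gene IDs and filtered and tested like other genes. Genes were tested with edgeR 4.0.16 (R 4.3.3; robust quasi-likelihood test, TMM scaling, filterByExpr with a minimum count of 10 and a total of 15, two-sided, Benjamini-Hochberg over all genes tested, threshold 0.05). The 3 comparisons of the CRISPR experiment shared 1 fit, the hairpin groups had another, and both controls were compared in a fit of all 34 libraries. Levels are CPM on TMM library sizes, divided by merged exon length in kb where genes are compared. Log2 levels for likeness between genes used a prior count of 2. Likeness was sought for members whose group means spanned at least 1 on the log2 scale, among genes with a mean of at least 3.

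The members and lists were chosen with earlier results of these data known. Every member is named. For each list and comparison, at most 3 genes are named, those past the threshold with the largest changes whose average was at least 1 on the log2 CPM scale. Some genes of the lists are not reported here. Of the gene IDs, 51485 were in the GENCODE annotation and 2869 were not. No libraries held identical values. Low counts limit the precision of genes such as Ereg. The SE of a log2 change was taken as its size divided by the square root of edgeR's F statistic. The 95% intervals were built from this SE and a t distribution. They include the spread between libraries, while limits given for a count of 0 cover counting error only. Alternatives were another scaling, DESeq2 1.42.0, limma 3.58.1 with and without runs as a random block, no filter, a threshold of 0.01, other sets of libraries, leaving out libraries and a replicate block.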

Additional observations from a re-analysis of the deposited data

Results flagged for a closer look

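Ereg in clone1 replicate 2 stood apart from the other 8 clone1 libraries at 6.64 CPM, with the next at 2.45 CPM. The gap was 0.632 of the group's whole range. The value rests on 6 counts in the shallowest library. In all, 24 sets of 9 or 10 values were looked at, of which chance marks about 1 in 20.

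The effects of the 2 knockout clones, each set against the same Scrambled libraries, differed in 5 members by the edgeR test of clone2 against clone1. The difference, clone2 minus clone1 on the log2 scale, was -2.14 for Areg, -0.78 for Btc, -0.87 for Egfr, -1.06 for Erbb2 and -0.53 for Erbb3. Of all genes tested, 49.1% differed between the clones.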

How the results depend on the processing

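Over 540 refits of single members, 495 stayed on the same side of the threshold, 37 lost the call, 8 gained one and 0 called values changed sign. Values that were not called could change sign, as Areg in clone1 against Scrambled, which ran from -0.33 to 0.56. Areg in clone2 against Scrambled and Areg, Btc, Erbb2 and Erbb3 in clone2 against clone1 kept their calls in every alternative run. Counts past the threshold that changed by over 1.5 times are given first by setting, and the cause was not tested. Where single Scrambled or shYAP libraries were left out, the whole range is given. At a threshold of 0.01, 756 genes (1459 in the fit reported) were called in clone1 against Scrambled, 453 (1261) in shYAP against shControl and 145 (353) in Scrambled against shControl, with 0 members in each. With runs as a random block in limma the counts were 497 for clone1 and 2522 (3810) for clone2 against Scrambled and 237 for shYAP, with 0 members in clone1 and in shYAP. As the runs were set after the values had been seen, these counts are descriptions only. Leaving out single Scrambled libraries gave 779 to 1025 genes and 0 to 1 members in clone1, and 2904 to 2975 and 1 to 2 members in clone2. In Scrambled against shControl it gave 102 to 195 and 0 members. Leaving out single shYAP libraries gave 412 to 515 and 0 to 1 members in shYAP. Omitting the shallowest library instead raised the counts to 1596 genes in clone1 and 3998 in clone2 against Scrambled. The fit of all 34 libraries called 2065 genes in shYAP and 0 members in clone1, as did no filter on low counts in clone1. A fit of Scrambled and shControl alone called 191 genes. With shControl replicates 1 to 4 alone, 2604 genes and 2 members were called in shYAP and 1457 genes in Scrambled against shControl. With shControl replicates 8 to 10 alone, 2229 genes were called in shYAP. With clone1 replicates 1 to 6 alone, 3 members were called. In clone2 against clone1 all alternatives gave 3851 to 6684 genes and 4 to 6 members. Same-numbered libraries did not deviate together (correlations -0.07 to 0.08), so the numbers name libraries only; with the replicate number as a block, 1350 genes and 2 members were called in clone1, 2957 and 1 in clone2, 5555 and 5 in clone2 against clone1, 1730 and 1 in shYAP, and 453 and 0 in Scrambled against shControl. Adjusted p over the alternatives ran from 0.00425 to 0.133 for Erbb3 in clone1, 0.00232 to 0.109 for Ereg in clone2, and in shYAP from 4.22e-09 to 0.188 for Areg, 0.0178 to 0.262 for Ereg, 4.53e-05 to 0.127 for Btc and 0.00500 to 0.459 for Erbb2. Depth limits members with few counts, such as Ereg in the clones and Erbb2 in shYAP (63 counts in all), and of Epgn the data say only that no read was counted.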
